A study of Mus musculus with 9 samples.

Results

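The genes described here are 3 steroid hormone receptors, 2 genes induced by glucocorticoids and 1 enzyme that makes active glucocorticoid, measured in single nuclei of mouse epididymal adipose tissue (epiAT), a visceral fat depot beside the testis. They are Esr1 (oestrogen receptor alpha), Nr3c1 (the glucocorticoid receptor), Nr3c2 (the mineralocorticoid receptor), Fkbp5 (a co-chaperone of the receptor complex), Tsc22d3 (also known as Gilz, an anti-inflammatory leucine zipper protein) and Hsd11b1 (11-beta-hydroxysteroid dehydrogenase type 1). The members were chosen by symbol, each symbol marked 1 row of the gene list, and they are 6 of 32285 genes counted. All 6 were followed in every library and in nuclei gated into cell classes by marker genes.

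As background, glucocorticoids bind the receptor in the cytoplasm, where chaperones hold it ready, and the receptor then moves to the nucleus and switches on genes such as Fkbp5 and Tsc22d3. Fkbp5 lowers the affinity of the receptor for hormone and so takes part in a negative feedback loop. In fat, Hsd11b1 turns inactive 11-keto steroid into corticosterone inside the cell, the mineralocorticoid receptor binds the same hormone, and oestrogen receptor alpha restrains fat gain and inflammation in both sexes.

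Male C57BL/6J mice were compared in 9 diet groups, and each group had 1 library of nuclei pooled from 5 mice. The chow controls were C (18 weeks of age), CC (26 weeks) and CCC (39 weeks). By the methods of the study C ate a low-fat control diet, whereas CC and CCC had been moved to another chow together with the weight loss groups. Libraries taken on high-fat diet (HFD) were H (12 weeks of HFD, 18 weeks of age), HH (25 weeks of HFD, 31 weeks of age), CCH (chow and then 4 weeks of HFD, 30 weeks of age) and HCH (12 weeks of HFD, 8 weeks of chow and 4 weeks of HFD, 30 weeks of age). Weight loss (WL) libraries had gone back to chow for 8 weeks, HC after 12 weeks of HFD (26 weeks of age) and HHC after 25 weeks of HFD (39 weeks of age). All animals were wild type. With 1 library per group the spread between mice of a group was not measured, and the intervals given below are 95% intervals for counting error only.

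The libraries held between 22599619 (CCC) and 66615262 (HHC) UMIs, which count captured RNA molecules, and 3996 (CC) to 12568 (HH) nuclei were kept. Markers placed between 54.1% (CCC) and 85.6% (HH) of the kept nuclei in a class, and all markers of the adipocyte, progenitor and macrophage lists were detected in the nuclei gated by them. Adipocyte nuclei numbered 765 to 2380 in the chow libraries, 179 (H) to 653 (CCH) in the HFD libraries, and 746 and 398 in HC and HHC. Any pair of libraries shared between 8 and 55 barcodes, at most 0.493% of the smaller library. C, H, HH, CCH and HCH were sequenced in one set, and CC, CCC, HC and HHC in another. Malat1, a nuclear RNA, made up 3.06% to 5.204% of UMIs in the chow libraries, 8.86% in H, 8.71% in HH and 3.07% to 7.22% in the other 4, and its part in the member values was not tested. RNA from adipocytes was found in other nuclei to an unequal extent: in progenitors, the adipocyte markers summed to 27.9% of their level in adipocytes in CC and 14.3% in CCC, but to between 1.35% (H) and 7.99% (HC) in the other 7 libraries. Fewer cells of a class and less RNA per cell cannot be told apart in a total over a tissue, so values are given per class, as CPM. This scales the UMIs of a gene by the UMIs of the class, with Malat1 and mitochondrial genes left out of that total.

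Of the 6 members 5 had a promoter sequence in the RefSeq table of the GRCm38.p6 build, which is the patched form of the mm10 build used for counting. The promoters of the 2 glucocorticoid-induced members are printed because their levels ordered the libraries differently in adipocytes. Each window runs from 250 bases before to 50 bases after an annotated start, read 5′ to 3′ on the strand of the gene, and capitals mark matches to an arm of the glucocorticoid response element (AGAACA or its reverse complement TGTTCT) or to the E-box CACGTG that clock proteins bind.
Fkbp5 chr17:28486100-28486399, minus strand: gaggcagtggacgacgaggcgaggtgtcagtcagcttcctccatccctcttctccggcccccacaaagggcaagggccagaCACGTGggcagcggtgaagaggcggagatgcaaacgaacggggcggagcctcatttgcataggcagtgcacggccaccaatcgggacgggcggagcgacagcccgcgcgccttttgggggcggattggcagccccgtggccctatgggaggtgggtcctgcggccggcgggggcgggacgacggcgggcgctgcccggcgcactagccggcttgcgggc
Tsc22d3 chrX:140600473-140600772, minus strand: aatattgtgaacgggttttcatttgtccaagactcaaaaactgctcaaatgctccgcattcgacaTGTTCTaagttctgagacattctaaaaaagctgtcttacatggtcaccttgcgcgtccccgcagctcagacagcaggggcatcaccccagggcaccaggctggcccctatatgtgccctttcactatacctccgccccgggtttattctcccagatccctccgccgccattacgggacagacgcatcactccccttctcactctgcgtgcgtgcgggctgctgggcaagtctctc
The Fkbp5 window held 1 E-box and no such arm, and it was rich in G and C (70.7%, against a median of 52.7% over all promoters). This Tsc22d3 window, the most upstream of 3 annotated starts, held 1 arm, and the windows of the other 2 starts held none. An arm occurred in 18.97% and an E-box in 7.15% of 32851 RefSeq promoters of the same length. The complete glucocorticoid response element, both arms with 3 bases between, was in none of the member windows and in 3 promoters in all, and the complete oestrogen response element was in none of them and in 23 in all. These matches are letters in short windows and were not tested for binding.

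By the GENCODE vM21 annotation all 6 are protein-coding genes: Esr1 at chr10:4611593-5005614 (plus strand), Nr3c1 at chr18:39410545-39519421 (minus), Nr3c2 at chr8:76899442-77245012 (plus), Fkbp5 at chr17:28399094-28517527 (minus), Tsc22d3 at chrX:140539528-140600659 (minus) and Hsd11b1 at chr1:193221634-193264075 (minus). Nr3c2, Fkbp5 and Hsd11b1 overlap other annotated genes on their own strand, so reads there are less certain.

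In adipocytes Esr1 separated the libraries by the diet at sampling. The chow libraries C, CC and CCC measured 1011 (993 to 1030), 654 and 604 CPM of Esr1, the WL libraries HC and HHC 632 and 562 CPM, and the HFD libraries H, HH, CCH and HCH 285 (249 to 325), 193 (173 to 214), 408 and 351 CPM. Every library on HFD was below every chow and every WL library, and the WL libraries lay beside the older chow controls. The HFD libraries were sequenced in one set with C, and the WL libraries in the other with CC and CCC. Of the libraries not on HFD, only C shared the set of the HFD libraries, so diet at sampling and set largely coincide. Esr1 was 3.54-fold lower in H than in C (interval 3.10 to 4.07) and 3.39-fold lower in HH than in CC (3.03 to 3.80). After weight loss the log2 ratio was -0.05 (-0.13 to 0.04) for HC against CC and -0.10 (-0.22 to 0.01) for HHC against CCC. HCH and CCH, both fed HFD for the last 4 weeks, differed by a log2 ratio of -0.21 (-0.36 to -0.07).

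Fkbp5 had another order. In adipocytes of C, CC and CCC it measured 1211 (1191 to 1231), 558 and 329.8 CPM, on HFD (H, HH, CCH and HCH) 165 (138 to 196), 239 (218 to 263), 431 and 356 CPM, and after WL (HC and HHC) 311 and 317 CPM. The chow libraries thus ranged more widely than the HFD libraries, and CCC fell inside the range of the HFD libraries. H was 7.33-fold lower than C (6.16 to 8.79) and HH was 2.33-fold lower than CC (2.10 to 2.59), while HC against CC gave a log2 ratio of -0.84 (-0.95 to -0.73) and HHC against CCC one of -0.06 (-0.22 to 0.10). C was the highest of the 9 libraries in all 5 classes that had 50 or more nuclei in each library, adipocytes, progenitors, macrophages, endothelial and mesothelial nuclei, so each Fkbp5 ratio with C as its control also holds the distance of C from the other chow libraries.

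Hsd11b1 was counted at low depth in adipocytes, with 8 UMIs in H and 23 in HH against 581 in C and 255 in CC. Its level was 50.9, 68.1 and 39.1 CPM in the chow libraries C, CC and CCC, 10.3 (4.46 to 20.3), 12.5 (7.90 to 18.7), 18.9 and 37.1 CPM in the HFD libraries H, HH, CCH and HCH, and 40.5 and 43.0 CPM in the WL libraries HC and HHC. All 4 HFD libraries were below the 3 chow libraries, with HCH only just below CCC, whose interval (32.5 to 46.7) held the HCH value. H was 4.93-fold lower than C (2.49 to 11.5) and HH was 5.47-fold lower than CC (3.56 to 8.78). HCH was higher than CCH by a log2 ratio of 0.97 (0.43 to 1.51), just short of 2-fold.

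The receptors of corticosteroids moved less in adipocytes. Nr3c1 measured 640.1, 595 and 528 CPM in the chow libraries (C, CC, CCC), 333 CPM in both H and HH, 651 and 429.8 CPM in CCH and HCH, and 587 and 439.6 CPM in HC and HHC. H and HH were the lowest of the 9 libraries and CCH was the highest, so the HFD libraries spanned the chow libraries. The log2 ratios were -0.94 (-1.13 to -0.76) for H against C, -0.84 (-0.97 to -0.71) for HH against CC and -0.60 (-0.73 to -0.47) for HCH against CCH, all short of 2-fold. Nr3c2 lay between 226 CPM (H) and 409 CPM (HC), a 1.81-fold range that was the second narrowest of the members in these nuclei. Its 2 highest and lowest values came from HC with HCH and from H with HH, and HC exceeded CC by a log2 ratio of 0.43 (0.32 to 0.55). Tsc22d3 lay between 542 CPM (HH) and 949 CPM (CCH), a 1.75-fold range, and was highest in both libraries with only 4 weeks of the last HFD. Fkbp5 and Tsc22d3, both glucocorticoid-induced, therefore did not order the libraries alike in adipocytes: H had 165 CPM of Fkbp5 against 1211 in C, and 572 CPM of Tsc22d3 against 716 in C.

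**Figure D1:**
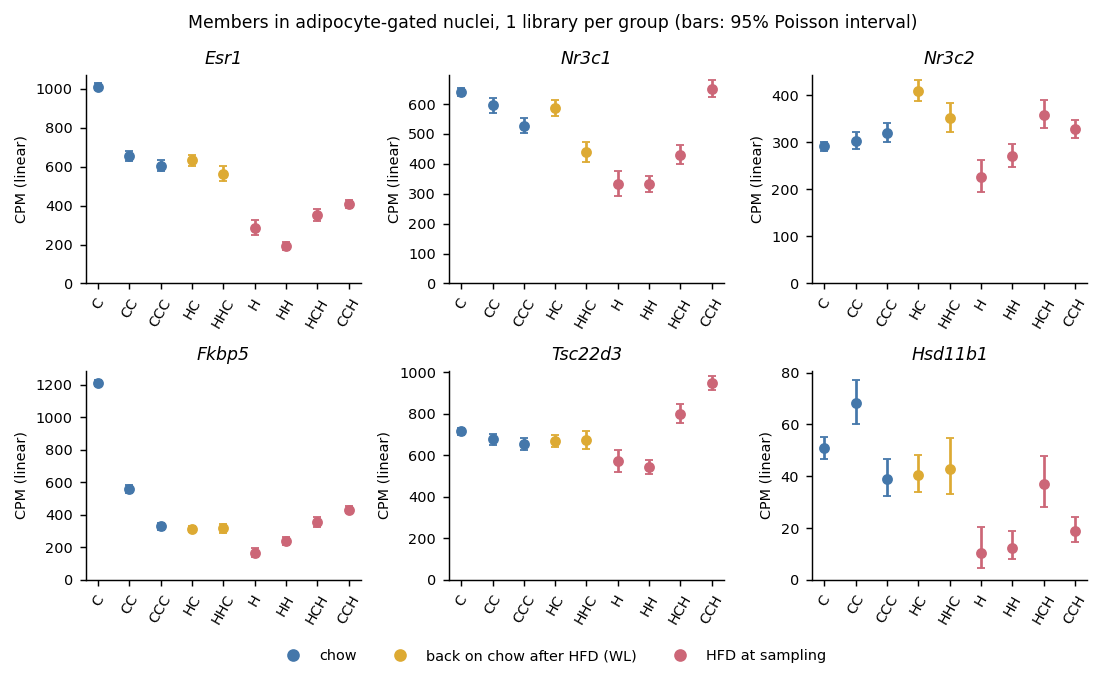
CPM of each gene in adipocyte nuclei (linear axis from 0) in each of the 9 libraries, with 95% Poisson intervals and colours for the diet state. Esr1 was between 193 and 408 CPM in the 4 HFD libraries and between 562 and 1011 CPM in the other 5, and Fkbp5 reached 1211 CPM in C.

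A gene was called in a comparison of 2 libraries when it was past 2-fold, with an interval that excluded a ratio of 1 and at least 20 UMIs in both together. In adipocytes 3 of 6 members (Esr1, Fkbp5, Hsd11b1) were called lower in H against C, where 5.21% of all genes were called lower, and the same 3 in HH against CC, where 9.67% were. No member was called lower in HC against CC (7.0% of all genes), in HHC against CCC (7.90%) or in HCH against CCH (1.96%). The median log2 ratio of all genes counted was 0.32 for H against C, 0.21 for HH against CC and 0.16 for HCH against CCH. HH and CC differed in age and sequencing set, and against C, of its own set, HH was lower 5.24-fold for Esr1, 5.06-fold for Fkbp5 and 4.09-fold for Hsd11b1. HH against CC and HC against CC share the library CC. The summed macrophage markers in adipocyte nuclei were 488 to 569 CPM in the chow libraries and 469 to 934 CPM on HFD, all 9 markers were detected in each, and the summed lipid-associated macrophage markers, which include Lpl, an adipocyte gene too, were 1544 to 1674 CPM on chow and 1843 to 3601 CPM on HFD, and 2015 and 4045 CPM in HC and HHC. The summed progenitor markers in adipocyte nuclei were 1411 to 1761 CPM on chow and 1581 and 1159 CPM in HC and HHC. On HFD they were 803 (H), 1018 (HH), 1418 (CCH) and 1819 CPM (HCH). The part of all these markers in the member values was not tested. With an estimated free RNA share of 5.87% (H) to 28.2% (CCC) taken off, Esr1 in adipocytes gave log2 ratios of -1.83 for H against C, -1.62 for HH against CC, 0.20 for HC against CC and 0.30 for HHC against CCC. The direction turned in the last 2, with HC and HHC above their controls. Here and below, the RNA taken off had the make-up of all kept nuclei of a library, ungated nuclei included, and not that of empty droplets.

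The only test across libraries took those of one diet state as replicates, although they differed in age and in time on the diet. With edgeR's quasi-likelihood test, 0% of 14251 genes passed an adjusted p of 0.05 in adipocytes for HFD against chow, and 0% for WL against chow. At an unadjusted p under 0.05 there were 3357 and 1176 genes, and DESeq2 called 1154 and 82. Esr1 had a log2 fold change of -1.48 (SE 0.36, edgeR adjusted p = 0.0899) for HFD against chow, with all 4 HFD libraries below all 3 chow libraries, and DESeq2 gave an adjusted p of 0.00402. Hsd11b1 had -1.58 (SE 0.40, edgeR adjusted p = 0.0922) and Fkbp5 -1.45 (SE 0.49, edgeR adjusted p = 0.131). Nr3c1, Nr3c2 and Tsc22d3 had log2 fold changes of -0.59, -0.21 and -0.10 with edgeR adjusted p of 0.313, 0.637 and 0.864. For WL against chow the log2 fold change of Fkbp5 was -1.26 (edgeR adjusted p = 0.659) and that of the other 5 members lay between -0.40 and 0.30. Without C, Fkbp5 was at -0.49 for WL (edgeR adjusted p = 0.9999) and at -0.67 for HFD (edgeR adjusted p = 0.370), and with the sequencing set as a covariate at -0.49 and -2.31. With that covariate, here and below, HFD against chow rests on C as the only chow library sequenced with the HFD libraries. Without CCH, whose mice had HFD for 4 weeks only, the edgeR adjusted p were 0.0192 for Esr1, 0.0458 for Hsd11b1 and 0.0472 for Fkbp5, in a fit where 1863 of 13476 genes passed.

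**Figure D2:**
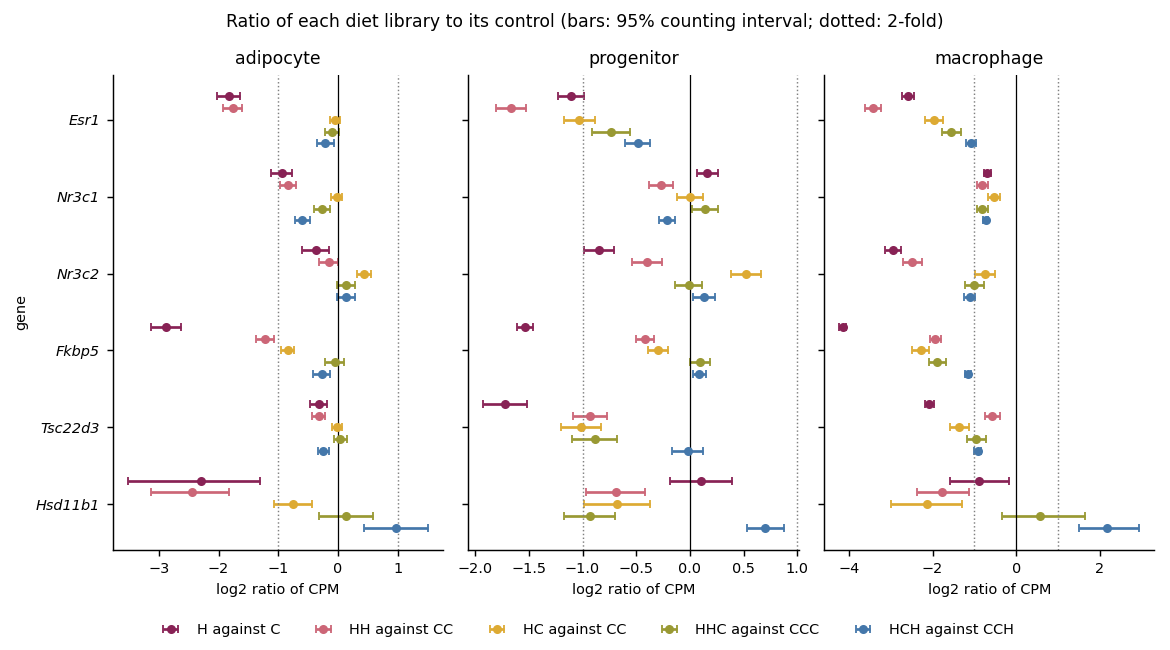
Log2 ratio of CPM of each diet library to its control, with 95% counting intervals, for the 6 genes in adipocytes, progenitors and macrophages (dotted lines at 2-fold; the horizontal scale differs between panels). In adipocytes Esr1 was at -1.83 and -1.76 for H and HH and at -0.05 and -0.10 for HC and HHC.

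In progenitors, the fibroblast-like cells that can become adipocytes, Esr1 measured 374, 397 and 211 CPM on chow (C, CC, CCC), 174, 125, 215 and 154 CPM on HFD (H, HH, CCH, HCH), and 194 and 127 CPM after WL (HC, HHC). C and CC stood above all others, CCC lay beside CCH, and the WL libraries were as low as the HFD libraries, unlike in adipocytes. Esr1 was 2.15-fold lower in H than in C (1.98 to 2.34), 3.18-fold lower in HH than in CC (2.89 to 3.504) and 2.04-fold lower in HC than in CC (1.84 to 2.26). The nuclei outside every class held 1354 to 1486 CPM of Esr1 on chow but 193 CPM in HC and 293 CPM in HHC. With a free RNA share of 29.2% taken off in CC, the log2 ratio of HH against CC in progenitors was -0.73 and that of HC against CC -0.25, and H against C gave -0.81. None of these was past 2-fold. In CCC the result was -12.9 CPM of Esr1, a level below 0, so more was taken off there than the progenitors held, and no ratio was formed. The summed lipid-associated macrophage markers in progenitor nuclei were 403, 1003 and 675 CPM in C, CC and CCC. They were 3035, 2765, 475 and 1864 CPM in H, HH, CCH and HCH, and 1504 and 4150 CPM in HC and HHC. The part of macrophage RNA in the member values of progenitors was not tested.

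Tsc22d3 in progenitors was 178, 244 and 158 CPM on chow (C, CC, CCC), 54.2 (47.9 to 61.1), 128, 115 and 114 CPM on HFD (H, HH, CCH, HCH), and 121 and 85.2 CPM after WL (HC, HHC). The 3 chow libraries were above the other 6, and H was 3.29-fold lower than C (2.87 to 3.79). Beside this, the adipocyte RNA share in CC progenitors would by itself give 189 CPM of Tsc22d3 there, and the share in CCC 93.8 CPM, in C 49.3 CPM and in H 7.71 CPM. With the free RNA share taken off, CCC held 82.4 CPM, below HH (119 CPM), HCH (99.6 CPM) and CCH (96.3 CPM). Fkbp5 in progenitors was 1182, 744 and 604 CPM on chow (C, CC, CCC), 408 CPM in H and 557 CPM in HH, and between 607 and 701 CPM in HC, HHC, CCH and HCH. Only C, CC and H stood outside a band of 557 to 701 CPM, and H was 2.90-fold lower than C (2.75 to 3.05). Nr3c1 stayed between 328 and 444 CPM in all 9 libraries, a 1.35-fold range.

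Nr3c2 in progenitors was 139.7, 202, 214 and 234 CPM on HFD (H, HH, CCH, HCH), 251, 267 and 344 CPM on chow (C, CC, CCC), and 383 and 341 CPM after WL (HC, HHC). All HFD libraries were below all chow libraries, and both WL libraries were at the upper end. Hsd11b1 lay between 40.0 CPM (C) and 123 CPM (CCC), and HCH (106.5 CPM) exceeded CCH (65.5 CPM) by a log2 ratio of 0.70 (0.53 to 0.87), as in adipocytes. It was lower in progenitors that carried fibro-inflammatory markers such as Dpp4 and Pi16, with a mean of 41.3 ± 20.8 CPM (SD over 9 libraries), than in the remaining progenitors, with 85.7 ± 35.2 CPM, and this held in each of the 9 libraries. The fibro-inflammatory share of progenitors was 55.9% in CCH and 31.4% in HCH. Within each kind HCH was again above CCH, with 52.0 (43.8 to 61.4) against 35.05 (29.5 to 41.4) CPM in the fibro-inflammatory progenitors. It had 137 (127 to 148) against 111 (99.1 to 125) CPM in the remaining progenitors.

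In progenitors 3 of 6 members (Esr1, Fkbp5, Tsc22d3) were called lower in H against C (5.64% of all genes), 1 (Esr1) in HH against CC (8.36%), 2 (Esr1, Tsc22d3) in HC against CC (7.87%), and none in HHC against CCC (4.95%) or HCH against CCH (1.66%). With edgeR 0% of 15472 genes passed for HFD against chow and 0% for WL against chow in progenitors, with 3901 and 1740 genes at an unadjusted p under 0.05 and 1590 and 230 called by DESeq2. The edgeR log2 fold change for HFD against chow was -1.06 (SE 0.31, adjusted p = 0.0892) for Esr1, -1.003 (SE 0.32, adjusted p = 0.105) for Tsc22d3 and -0.61 (SE 0.23, adjusted p = 0.134) for Nr3c2. For Nr3c2 the difference of WL from HFD was itself tested, with a log2 fold change of 0.94 (SE 0.25, edgeR adjusted p = 0.111; DESeq2 adjusted p = 0.0276), and each WL library was above each of the 4 HFD libraries. Both WL libraries came from one sequencing set and all 4 HFD libraries from the other. The chow libraries lay in both sets, but only C in that of the HFD libraries. With the set as a covariate, which rests on C for the HFD side, the log2 fold change was 0.65 (SE 0.44).

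Macrophages showed the widest range of each member among the 5 large classes. Fkbp5 in all macrophage nuclei was 1861 (1813 to 1910), 529 and 332 CPM on chow (C, CC, CCC), 105 (99.2 to 110.1), 139, 695 and 310.3 CPM on HFD (H, HH, CCH, HCH), and 108 and 89.7 CPM after WL (HC, HHC), a 20.7-fold range. CCH, whose mice met HFD for 4 weeks only, stood with the chow libraries, and the WL libraries stood with H and HH. Nr3c2 was 201 to 243 CPM on chow and 197 CPM in CCH, against 26.0 to 90.9 CPM in H, HH and HCH and 143 and 121 CPM in HC and HHC. Esr1 was 255 to 421 CPM on chow and 229 CPM in CCH, and the other 5 libraries held between 39.1 (HH) and 109 CPM (HCH). Nr3c1 was 538 to 661 CPM on chow and 771 CPM in CCH, against 319 to 464 CPM in the 5 others. For these 4 genes the 5 libraries with 12 or 25 weeks of HFD in their past were all below the 4 without. For Fkbp5 the margin was narrow, with 310.3 CPM in HCH against 332 CPM in CCC. Tsc22d3 was 219 (CCC) to 530.0 CPM (C) on chow and 413 CPM in CCH, and 113 to 218 CPM in the others. From the top down, C, CCH, CC, CCC, HCH and HH had the same order for Tsc22d3 as for Fkbp5. The adipocyte RNA share would by itself give 168 CPM of Tsc22d3 in CC macrophages and 92.1 CPM in CCC. It would give 48.1 CPM in C and 10.9 CPM in HH. With the free RNA share taken off, CCC held 190 CPM, below HH (198 CPM) and HCH (220 CPM). H, HC and HHC stayed below CCC.

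The split of the libraries into 5 and 4 also runs through the make-up of the macrophage nuclei. Perivascular markers (among them Lyve1 and F13a1, of resident macrophages along vessels) gated 66.3% to 85.9% of macrophage nuclei in C, CC, CCC and CCH, and 14.7% to 35.7% in H, HH, HC, HHC and HCH. Markers of lipid-associated macrophages (among them Trem2 and Gpnmb), which take up lipid in obese fat, gated 1.45% to 9.07% in the former 4 libraries and 38.8% to 59.8% in the latter 5. In each of these 5 libraries Fkbp5 was lower in lipid-associated than in perivascular nuclei, with 54.3 against 268 CPM (H), 49.2 against 377 CPM (HH), 58.1 against 257 CPM (HC), 59.8 against 200.4 CPM (HHC) and 75.6 against 598 CPM (HCH). Esr1 (18.3 to 72.5 against 113 to 202 CPM), Nr3c2 (10.4 to 84.4 against 86.7 to 297 CPM), Nr3c1 (287 to 361 against 396 to 606 CPM) and Tsc22d3 (82.9 to 139.5 against 158 to 313 CPM) were also lower in lipid-associated nuclei in 5 of 5 libraries. Hsd11b1 was not, with 4.41 to 19.8 against 4.13 to 17.9 CPM, higher in lipid-associated nuclei in 4 of 5 libraries but with intervals that overlapped in each. No test was made, since an exact two-sided sign test over 5 libraries cannot reach the threshold of 0.05.

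Within perivascular nuclei alone, part of the distance was left. Fkbp5 was 1972 CPM in C (1919 to 2026) and 268 CPM in H (246 to 292), a log2 ratio of -2.88 (-3.01 to -2.75), against -4.15 over all macrophage nuclei. It was 559 CPM in CC and 377 in HH, a log2 ratio of -0.57 (-0.73 to -0.40) against -1.93 over all, and 738 CPM in CCH and 598 in HCH, -0.30 (-0.38 to -0.22) against -1.16. HC against CC gave -1.12 (-1.37 to -0.87) against -2.29 over all. Nr3c2 in perivascular nuclei was 297 CPM in HC and 264 in HHC, beside 214 to 279 CPM on chow, and 86.7 in H and 126 in HH, so that here the 2 WL libraries were at the chow level or above it and H and HH below it. Esr1 in perivascular nuclei was 122 CPM in H and 113 in HH, below the 245 to 426 CPM of the chow libraries. HC (194 CPM), HHC (177 CPM), CCH (238 CPM) and HCH (202 CPM) were also below every chow library, though the CCH interval (224 to 254) reached the CCC value.

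**Figure D3:**
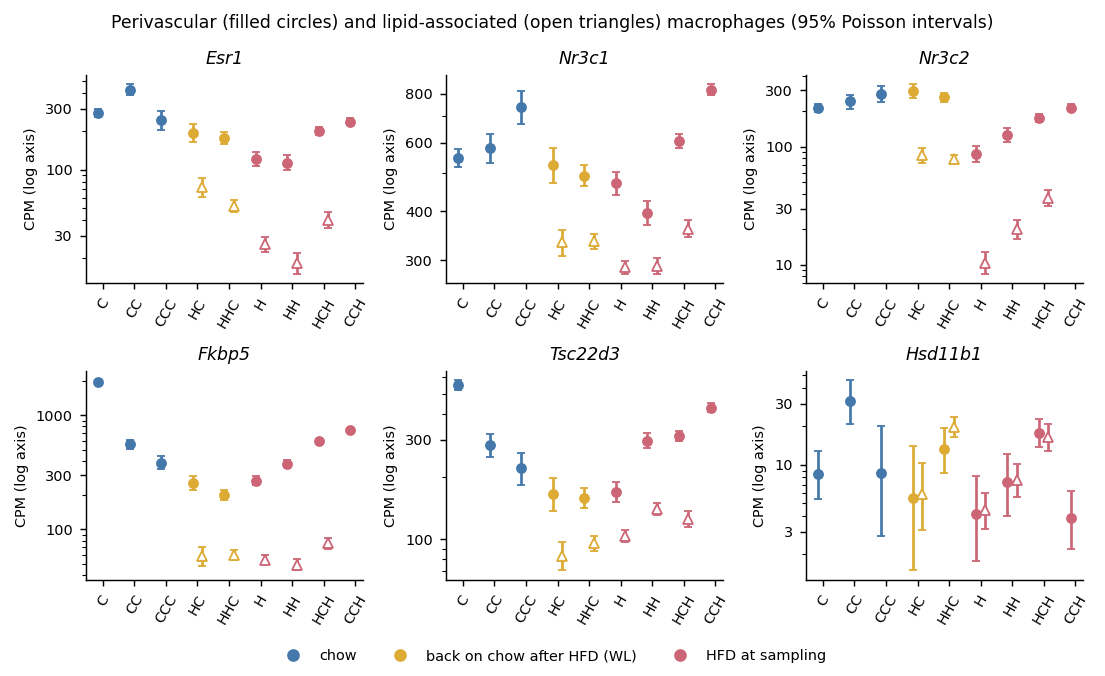
CPM on a log axis of each gene in perivascular (filled circles) and lipid-associated (open triangles) macrophage nuclei of each library with 50 or more such nuclei, with 95% Poisson intervals. For Fkbp5 the lipid-associated nuclei lay between 49.2 and 75.6 CPM in all 5 libraries, and the perivascular nuclei between 200.4 (HHC) and 1972 CPM (C).

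In macrophages 4 of 6 members were called lower in H against C (12.1% of all genes), namely Fkbp5 (17.8-fold, 16.8 to 18.9), Nr3c2 (7.74-fold, 6.79 to 8.84), Esr1 (6.02-fold, 5.41 to 6.69) and Tsc22d3 (4.22-fold, 3.94 to 4.51). In HH against CC 4 were called lower (12.7% of all genes), with Esr1 lower 10.7-fold, Nr3c2 5.60-fold, Fkbp5 3.82-fold and Hsd11b1 3.41-fold. Against C, of its own sequencing set, HH was lower 6.82-fold for Esr1, 4.70-fold for Nr3c2, 13.4-fold for Fkbp5 and 2.69-fold for Tsc22d3, and Hsd11b1 was level (log2 ratio 0.03, -0.60 to 0.71). In HC against CC 4 were called lower (11.3%), Esr1, Fkbp5, Tsc22d3 and Hsd11b1, and in HHC against CCC 3 were (7.72%), Esr1, Nr3c2 and Fkbp5, of which Nr3c2 was at 2.004-fold, on the limit. In HCH against CCH Esr1 (2.11-fold), Nr3c2 (2.16-fold) and Fkbp5 (2.24-fold) were called lower (3.57% of all genes) and Hsd11b1 was called higher, 4.54-fold (17.2% of all genes were called higher). That last ratio rests on 186 UMIs in HCH and 19 in CCH, and in perivascular nuclei alone it was a log2 ratio of 2.21 (1.41 to 3.10). Hsd11b1 was also higher in HCH than in CCH in endothelial (32.9 against 16.6 CPM) and mesothelial nuclei (18.2 against 6.64 CPM), and so in every large class. T or NK nuclei, which held the most Hsd11b1, were 3.14% of kept nuclei in HCH and 2.05% in CCH. The part of their RNA in the other classes was not tested. Hsd11b1 in CC macrophages rests on 30 UMIs, and adipocyte markers there stood at 24.8% of their adipocyte level. Restricted to perivascular nuclei, the number of members called either way was 4 for H against C (26.3% of all genes), 2 for HH against CC (31.5%), 3 for HC against CC (12.2%), 0 for HHC against CCC (10.5%) and 1 for HCH against CCH (13%). For HH against CC and HCH against CCH these counts were near the share of all genes. With an estimated free RNA share of 8.14% (H) to 26.7% (CC) taken off in macrophages, Hsd11b1 gave log2 ratios of 3.29 against 2.18 for HCH against CCH, -3.65 against -2.13 for HC against CC, -0.27 against -0.90 for H against C and 1.42 against 0.57 for HHC against CCC. Fkbp5 gave -3.80 against -1.89 for HHC against CCC and -3.02 against -2.29 for HC against CC.

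With edgeR 3.67% of 15052 genes passed in macrophages for HFD against chow and 0% for WL against chow (2495 at an unadjusted p under 0.05, and 756 by DESeq2), and no member passed in either. The edgeR log2 fold changes for HFD against chow were -1.58 (SE 0.60, adjusted p = 0.114) for Esr1, -1.34 (SE 0.61, adjusted p = 0.160) for Nr3c2 and -1.58 (SE 0.77, adjusted p = 0.187) for Fkbp5. For WL against chow Fkbp5 had -3.23 (SE 1.06, edgeR adjusted p = 0.193; DESeq2 adjusted p = 0.0146) and Tsc22d3 -1.64 (SE 0.59, edgeR adjusted p = 0.219), with both WL libraries below all chow libraries for both genes. Without C, Fkbp5 was at -2.07 for WL (edgeR adjusted p = 0.371) and at -0.41 for HFD (edgeR adjusted p = 0.742), and with the sequencing set as a covariate at -2.08 and -2.64. The value of -2.64 again rests on C as the only chow library of its set. Without CCH, 5 of 6 members passed for HFD against chow, with edgeR adjusted p of 0.00353 for Esr1, 0.00436 for Nr3c2, 0.0193 for Fkbp5, 0.0194 for Nr3c1 and 0.0375 for Tsc22d3, and the count over all genes went from 553 to 4891, or 31.02% of 15765 tested. That count was 0 when any of CC, CCC, H, HH, HC or HCH was left out, or when libraries of one age were taken as a block, so the gene calls named below for macrophages also rest on each of these libraries. Without C 474 genes passed, and none of the named calls (Tgfbr3, Fos, Atf3) was among them.

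Across cell classes each member had its own order, and neighbours in that order were compared within libraries by exact two-sided sign permutation over 9 libraries, with p adjusted over 24 comparisons and 0.00391 as the smallest raw p the design allows. Among the 5 large classes Esr1 was highest in adipocytes (522 ± 246 CPM, SD over 9 libraries) and mesothelial nuclei (497 ± 62.3 CPM), which were not separated (adipocytes higher in 5 of 9 libraries, exact permutation adjusted p = 0.746), and mesothelial nuclei were above progenitors (219 ± 100.03 CPM) in 9 of 9 (exact permutation adjusted p = 0.0156). In mesothelial nuclei, which line the surface of the depot, Esr1 lay between 413 and 599 CPM in all libraries, with 515 CPM in H against 599 in C. Nr3c2 was highest in endothelial nuclei among the 5 large classes, with 521 ± 116 CPM against 318 ± 53.3 CPM in adipocytes (higher in 9 of 9, exact permutation adjusted p = 0.0156), and lowest in macrophages. Lymphatic endothelial nuclei, with 50 or more nuclei in 7 libraries, held 1398 ± 193 CPM of Nr3c2 and at least 1073 CPM in each.

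Tsc22d3 was highest in adipocytes (695 ± 121 CPM), above macrophages (247 ± 143 CPM) in 9 of 9 libraries (exact permutation adjusted p = 0.0156). Fkbp5 was highest in progenitors (679 ± 212 CPM), above mesothelial nuclei (504 ± 185 CPM) in 9 of 9 (exact permutation adjusted p = 0.0156), and mesothelial nuclei, macrophages, adipocytes and endothelial nuclei were not separated from their neighbours. Among the 5 large classes Nr3c1 was close to even, from 504 ± 125 CPM in adipocytes to 383 ± 38.1 CPM in progenitors with no neighbours separated, and only mesothelial nuclei were lower (259 ± 44.7 CPM, below progenitors in 9 of 9, exact permutation adjusted p = 0.0156). Hsd11b1 was highest in progenitors among the large classes (68.8 ± 29.0 CPM), above adipocytes (35.6 ± 18.8 CPM) in 8 of 9 libraries (exact permutation adjusted p = 0.0375). T or NK nuclei held more, 285 ± 83.2 CPM over 8 libraries, from 156 CPM in C to 393 CPM in CCC, on 607 UMIs in all. Macrophages (12.4 ± 8.42 CPM) and mesothelial nuclei (12.4 ± 7.08 CPM) had the lowest means.

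**Figure D4:**
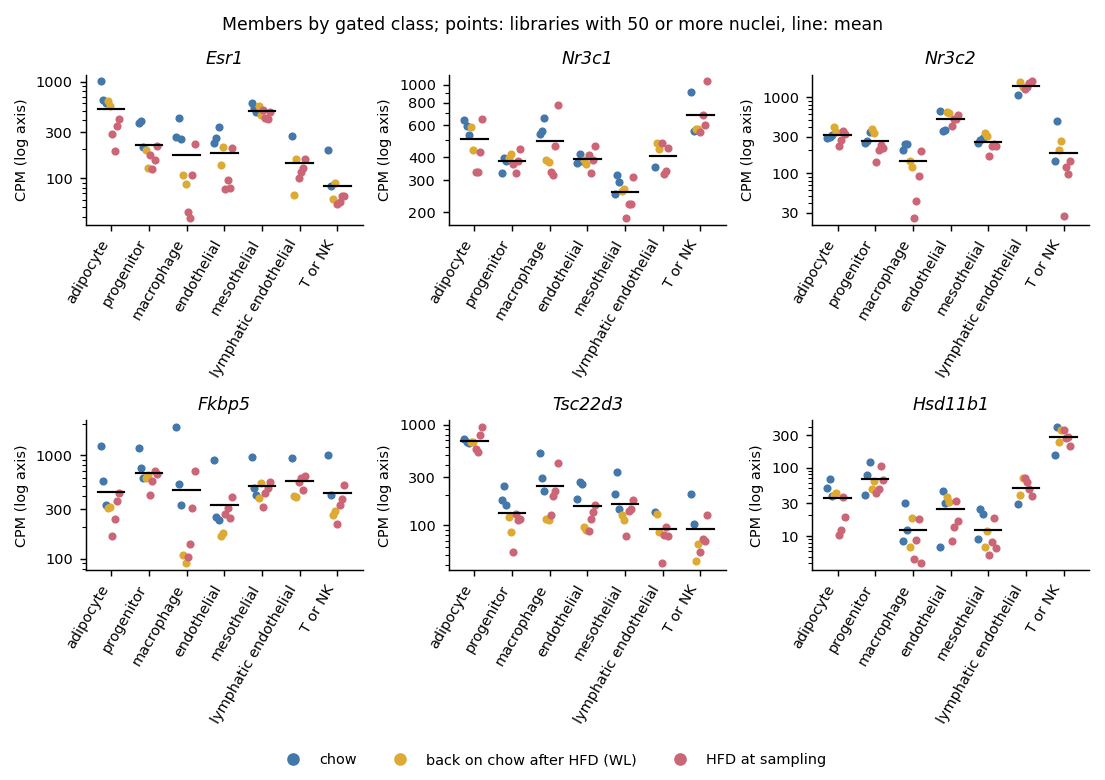
CPM on a log axis of each gene in 7 gated classes, with a point for each library with 50 or more nuclei of the class, coloured by diet state, and a line at the mean. Nr3c2 was highest in lymphatic endothelial nuclei (mean 1398 CPM), Hsd11b1 in T or NK nuclei (mean 285 CPM) and Tsc22d3 in adipocytes (mean 695 CPM).

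Over 82 sums of a class in a library with 50 or more nuclei, the genes whose log2 levels followed a member most closely were, as a description, Slc27a1 (a fatty acid transporter, Pearson r = 0.82), Sik2 (0.80) and Adrb3 (the beta-3 adrenergic receptor, 0.79) for Tsc22d3, and Folh1 (0.83), Ddo (0.82) and Adgrg2 (0.82) for Esr1. For Nr3c2 they were Dock9 (0.77), Stox2 (0.76) and Galnt18 (0.73), and for Hsd11b1 Il27ra (0.78), Gimap7 (0.77) and A430093F15Rik (0.76). Nr3c1 and Fkbp5 had weaker matches, Cdyl2 (0.75), Rps6ka3 (0.71) and Znrf2 (0.68) for Nr3c1, and Tdrd3 (0.71), Zbtb20 (0.67) and Msantd2 (0.65) for Fkbp5. The sums of a library share their sequencing run and free RNA, and 12349 genes were considered. Adrb3 is also one of the adipocyte markers of the gate, so its high level in adipocyte sums was partly set by the gating.

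Genes of the pathway, members among them, were counted by list. Of 20 genes known to be induced by glucocorticoids, Fkbp5 and Tsc22d3 among them, none passed for HFD against chow in adipocytes (19 tested, median log2 fold change 0.07 against -0.05 over all genes) or progenitors (20 tested, -0.39 against 0.01), and 1 was lower in macrophages (20 tested, -0.60 against 0.06), Tgfbr3, a co-receptor for TGF-beta (-1.87, SE 0.39, edgeR adjusted p = 0.0425). This is near the 2.78% of all genes that were lower there, and it did not pass without C. For WL against chow none passed, and the medians were -0.48 in adipocytes, -0.82 in progenitors and -1.44 in macrophages, against -0.05, -0.01 and 0.01 over all genes. Without C these medians were -0.30, -0.65 and -0.90 for WL, and for HFD -0.12 in progenitors and -0.14 in macrophages. In that fit 2 of the 20 passed as lower in progenitors for HFD against chow, where 4.41% of all genes were lower. The list was not uniform: in adipocytes, for genes chosen after their values were seen, Zbtb16 went from 2777 CPM in C to 1030 in H as Pdk4 (an inhibitor of glucose oxidation) went from 32.0 to 151 CPM and Angptl4 (an inhibitor of lipoprotein lipase) from 146 to 483 CPM. C was the highest library for 3 of 19 genes of this list in adipocytes, 8 of 19 in progenitors and 5 of 18 in macrophages, while it was highest for 10.5%, 12.4% and 9.27% of all genes. In adipocytes HCH was highest for more of them, 6 of 19, while it was highest for 10.9% of all genes.

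Of 6 steroid receptor genes 4 were tested in each class, the members Esr1, Nr3c1 and Nr3c2 among them, and none passed. Their median log2 fold changes for HFD against chow were -0.84 in adipocytes, -0.39 in progenitors and -1.46 in macrophages. Without C these medians were -0.30, -0.41 and -1.51. They largely repeat the values of the members given above. Of 10 receptor chaperones none passed, with medians of -0.11, 0.01 and 0.15 in the 3 classes, although Fkbp5 is one of them. Of 9 coregulators none passed (-0.39, -0.23 and -0.27, and without C -0.15, -0.03 and -0.16). Of 10 steroid enzymes, Hsd11b1 among them, none of the 5, 7 and 6 tested did (-1.58, -0.44 and -0.78, and without C -1.54, -0.39 and -1.23). The adipocyte median of -1.58 was also the value of Hsd11b1. In progenitors 1 coregulator and 1 steroid enzyme passed as lower without C, where 4.41% of all genes were lower. Of 12 clock genes none passed (-0.39, -0.12 and -0.14), although single genes differed between libraries, Arntl from 21.4 CPM in CCH to 101 CPM in HC in adipocytes (chosen after its values were seen). Of 8 immediate early genes, which rise within minutes of stimulation or tissue handling, none passed in adipocytes or progenitors and 2 were higher in macrophages on HFD, Fos (2.93, SE 0.64, edgeR adjusted p = 0.0450) and Atf3 (4.14, SE 0.92, edgeR adjusted p = 0.0467), where 0.897% of all genes were higher. Neither passed without C, where the median of this list in macrophages was 1.69. In progenitors 2 of the 8 passed as higher without C, where 0.839% of all genes were higher, and the median was 1.39. With all libraries the medians of this list for HFD against chow were 1.19 in adipocytes, 0.79 in progenitors and 1.38 in macrophages, against -0.05, 0.01 and 0.06 over all genes. H was the highest library for 3 of 4 of these genes in adipocytes (16.99% of all genes) and 4 of 7 in macrophages (15.02%). In progenitors it was highest for 2 of 7 (13.5%), as was HH (2 of 7, 23.6%). The part of clock time or handling in the levels of the members was not tested.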

How the data were processed

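Nuclei of epididymal adipose tissue from 9 diet groups, 1 library of 5 pooled mice per group, were measured by droplet single-nucleus RNA-seq. The authors deposited raw UMI counts per gene and barcode, made with Cell Ranger 6.1.2 on the mm10 build with intronic reads included, and the files were used as filtered barcode matrices. Seurat 4.1.0 was the authors' downstream tool, and by their methods free RNA was judged not to need correction. No annotation of nuclei was used here.

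Nuclei with 500 to 3000 genes and at most 40000 UMIs were kept, and doublets were removed with Scrublet (scanpy 1.11.5). In 4 libraries its automatic threshold marked almost no doublets, and the highest scores at the expected rate were removed there. Nuclei were gated into 12 classes by marker lists, with a Poisson score of at least 3 over the free RNA background, a lead of 2 over the next class and at least 2 markers detected. The scoring rule was set after the data were seen. UMIs were summed per class and library, totals excluded Malat1 and mitochondrial genes, and classes under 50 nuclei were not used. A level is CPM with an exact Poisson 95% interval, and a ratio has an exact conditional interval. UMIs collapse PCR copies, and the intervals cover counting error only.

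Libraries were compared as H with C, HH with CC, HC with CC, HHC with CCC, and HCH with CCH. Summed counts were fitted across all genes by diet state (3 chow, 4 HFD, 2 WL libraries) with edgeR 4.0.16 (quasi-likelihood, TMM, Benjamini-Hochberg adjustment at 0.05). Nothing in the labels makes these libraries replicates of one group, so the p-values measure the spread between libraries of unlike age and diet length. On simulated counts for HFD against chow, with 200 genes changed, the fit found 3% of 2-fold and 67% of 4-fold changes among 14251 genes in adipocytes, 13% and 62% among 15472 in progenitors, and 3% and 58% among 15052 in macrophages. DESeq2 1.42.0, other gates, scalings, filters and sets of libraries were alternatives. Likeness between genes was Pearson's r of log2(CPM + 10). The genes named are the 6 members, the 3 genes most like each and list genes that passed the test, and others are marked as chosen after their values were seen. The members and lists were chosen with earlier results of these data known. A result for 1 gene of the lists is not reported here.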

Additional observations from a re-analysis of the deposited data

Results flagged for a closer look

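Esr1 in endothelial nuclei of library CCH measured 206 CPM and stood apart from the other 3 HFD libraries by Dixon's criterion for a group of 4. It was the high value, with 78.2, 95.1 and 80.2 CPM in H, HH and HCH, and 230, 263 and 340 CPM in the chow libraries C, CC and CCC. Of 30 groups examined 1 was marked in this way. The nominal rate of 1 in 20 does not apply, since all groups hold the same 4 libraries and these differ in time on HFD.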

How the results depend on the processing

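Each diet group had 1 library, so no replicate numbers pair animals, but libraries of one age can be paired (C with H, CC with HC, CCC with HHC). With age as a block, where HFD against chow rests on C and H alone, edgeR called 0 genes in adipocytes, 1 in progenitors and 0 in macrophages for HFD, and 1, 0 and 0 for WL. No member passed, and Tsc22d3 in adipocytes for WL was 0.052. Of the log2 ratios of members under other settings, 542 moved by less than their counting interval, 134 moved further, and 1 of those past 2-fold changed sign, Hsd11b1 in macrophages of HH, at 0.035 with C as control. Ratios near 0 that were not past 2-fold also changed sign, such as Esr1 in adipocytes of HC and HHC, from -0.05 to 0.20 and from -0.10 to 0.30 with free RNA taken off. The number of members past 2-fold in adipocytes for HCH against CCH was 1 with the looser and 1 with the stricter gate, against 0. In progenitors it was 2 for HH against CC, against 1, with the looser gate, no upper gene limit, TMM factors, all genes in totals or C as control, and 0 with free RNA taken off, which left 2 of 3 for H against C. For HC against CC it was 0 with the stricter gate and 1 with no doublet removal or with free RNA taken off, against 2, and for HHC against CCC it was 2 with the looser gate and 1 with the stricter gate or free RNA taken off, against 0. Under these settings 10.8% to 33.3% of all genes were past 2-fold in either direction. In perivascular macrophages alone it was 2 for HH against CC, 0 for HHC against CCC and 1 for HCH against CCH, against 4, 3 and 4. Free RNA taken off, perivascular macrophages alone, the fit without C and H and the age block were chosen after seeing the data.

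The count of genes past an adjusted p of 0.05 depended on the tool, the filter and the library CCH. For HFD against chow and WL against chow, DESeq2 called 1154 and 82 genes in adipocytes, 1590 and 230 in progenitors, and 2743 and 756 in macrophages. With no low-count filter edgeR called 1744 and 282, 1266 and 103, and 1893 and 249. With the sequencing set as a covariate, HFD against chow gave 1 gene in adipocytes and 0 in macrophages. The looser gate gave 400 genes in progenitors and 1512 in macrophages, and the stricter gate 0 in macrophages. Without C and H there were 2 in progenitors and 1 in macrophages. Leaving out 1 library at a time gave 0 to 1863 genes for HFD and 0 to 17 for WL in adipocytes, 0 to 2344 and 0 to 135 in progenitors, and 0 to 4891 and 0 to 1011 in macrophages, with each highest count reached without CCH. The cause was not tested. Members past the threshold for HFD against chow numbered 3 in adipocytes and 2 in progenitors with DESeq2 (8.26% and 10.3% of all genes), 3 and 1 with no filter (7.29% and 5.07%), and 0 to 3, 0 to 2 and 0 to 5 in adipocytes, progenitors and macrophages with 1 library left out (up to 13.8%, 15.2% and 31.02% of all genes). For WL against chow in macrophages they numbered 1 with DESeq2 (5.23%) and 0 to 2 with 1 library left out (up to 6.41%).

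Of the fitted log2 fold changes 571 kept their side of the threshold and their direction, 22 passed it and 19 reversed. With 1 library left out at a time, the value for HFD against chow ranged from -0.33 to 0.064 for Tsc22d3 in adipocytes, from -0.19 to 0.063 for Nr3c1 and -0.67 to 0.043 for Hsd11b1 in progenitors. For WL against chow it ranged from -0.22 to 0.058 for Tsc22d3 and -0.63 to 0.076 for Nr3c1 in adipocytes, and from -1.15 to 0.32 for Hsd11b1 in macrophages. With the sequencing set as covariate, Tsc22d3 in adipocytes for WL was 0.051, and Nr3c1 and Hsd11b1 in progenitors for HFD were 0.14 and 0.66. The values for HFD rest on C as the only chow library of that set. Without C and H, Tsc22d3 in adipocytes was 0.15 for HFD and 0.053 for WL, and 0.13 in macrophages for HFD.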

Other observations

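Nuclei that no marker list claimed held 779 CPM of Esr1 in H, 359 in HH, 1481 in CCH and 1145 in HCH, beside the chow and WL values given above. In nuclei gated as epididymal epithelium, a tissue next to the depot, Esr1 had a mean of 2012 CPM over 5 libraries, from 46.2 CPM in HC to 3318 CPM in CCC.

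B nuclei held 508 ± 215 CPM of Nr3c2 (SD over 7 libraries) and T or NK nuclei 687 ± 188 CPM of Nr3c1 (SD over 8 libraries). Both were at their lowest in H for their class, with 282 CPM and 553 CPM.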
